A study of Gallus gallus with 25 samples.

Results

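Contact domains of chicken chromosome 2 were described in 4 pooled Hi-C maps of growing oocytes. The members were all domains listed on chromosome 2 in the automatic domain list of each map, 793 of 5602 domains in the series. They comprised 200 of 1342 domains in post-LBC type 2, 162 of 1132 in post-LBC type 1, 228 of 1582 in LBC type 2 and 203 of 1546 in LBC type 1. LBC stands for lampbrush chromosome, and post-LBC for the stage that follows it. All nuclei came from wild-type chicken oocytes. Post-LBC nuclei were from oocytes 4 to 7 mm in diameter, 1 nucleus of type 2 and 4 nuclei of type 1, and LBC nuclei from oocytes 1 to 2 mm in diameter, 6 of type 2 and 14 of type 1. The labels assign the types after quality control, and in the study's supplementary note they differ in the share of contacts between chromosomes. The note leaves their origin unclear and reports that LBC type 2 boundaries clustered like those of fibroblasts. Maps of type 2 averaged around binding sites of the protein CTCF looked, in that note, like a mixture of type 1 oocytes and fibroblasts. The note therefore raises possible mixing, while another contact measure differed from that of computed mixtures. It calls contamination by a somatic cell unlikely and proposes a pre-lampbrush stage for LBC type 2. For post-LBC type 2 it proposes a later stage than for post-LBC type 1. The study's main domain analyses used type 1 only. Each group was thus 1 pooled map, post-LBC type 2 being a single nucleus, and the labels do not tie nuclei to hens. The lists contain coordinates and no gene level, so the label oocyte was not checked against markers.

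Lampbrush chromosomes are meiotic bivalents of the diplotene oocyte, drawn out into a chain of compact chromatin granules called chromomeres, from which transcribed lateral loops extend. Later in oocyte growth, transcription declines and the loops are withdrawn. Hi-C joins and sequences DNA that was close in the nucleus, and a contact domain is a stretch whose parts contact each other more often than they contact its neighbours. A boundary here is the start or end of a domain, with a position shared by neighbouring domains counted once. Chromosome 2 is one of the macrochromosomes of the chicken, and it is long enough to follow domain length, boundaries and gaps over many windows.

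All values are positions on the assembly ASM2420605v2. In the 4 automatic lists they lie on a 16 kb grid and only domains longer than 200 kb are listed. A manually refined list of LBC type 1, used where named, holds 87 chromosome 2 domains. Among their starts and ends, 35 positions are off this grid. With 1 map per group there is no spread between nuclei, no test was made, and the intervals given cover counting error over domains or boundaries only. The maps also differ in the number of nuclei, and the length of a domain depends on gamma, the size setting of the domain caller. For single chicken oocytes the methods chose gamma to bring the mean domain length near 1 Mb, so that mean length was a target of the calling, and the gamma used for the pooled maps is not given in the sources used here. The part of the number of nuclei or of gamma in the differences below was not tested, and stage cannot be told apart from them.

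The chromosome 2 domains of post-LBC type 1 were the longest of the 4 maps by median, mean and quartiles. The median length was 704 kb (95% interval 656 to 752 kb) in post-LBC type 2, 912 kb (848 to 976 kb) in post-LBC type 1, 632 kb (608 to 672 kb) in LBC type 2 and 672 kb (624 to 736 kb) in LBC type 1. The mean was 726 ± 305 kb in post-LBC type 2 (SD, n = 200 domains), 912 ± 325 kb in post-LBC type 1 (n = 162), 646 ± 208 kb in LBC type 2 (n = 228) and 723 ± 291 kb in LBC type 1 (n = 203). The post-LBC type 1 interval for the median lay above those of the other maps, while the post-LBC type 2 interval overlapped that of each LBC map.

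The share of long domains differed between the maps. Domains longer than 1 Mb made up 17.5% of the list in post-LBC type 2 (35 domains), 40.7% in post-LBC type 1 (66), 4.82% in LBC type 2 (11) and 19.2% in LBC type 1 (39). Domains shorter than 500 kb made up 27.5%, 10.5%, 26.8% and 25.1% of these lists in the same order. LBC type 2 thus had the narrowest distribution, with few long domains and a usual share of short ones. These shares were counted on chromosome 2 only. On all other chromosomes the median length was 688 kb in post-LBC type 2, 848 kb in post-LBC type 1, 592 kb in LBC type 2 and 576 kb in LBC type 1. The domains together covered 145 Mb in post-LBC type 2, 148 Mb in post-LBC type 1, 147 Mb in LBC type 2 and 147 Mb in LBC type 1, so that the longer domains of post-LBC type 1 went with fewer domains over a similar length.

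**Figure D1:**
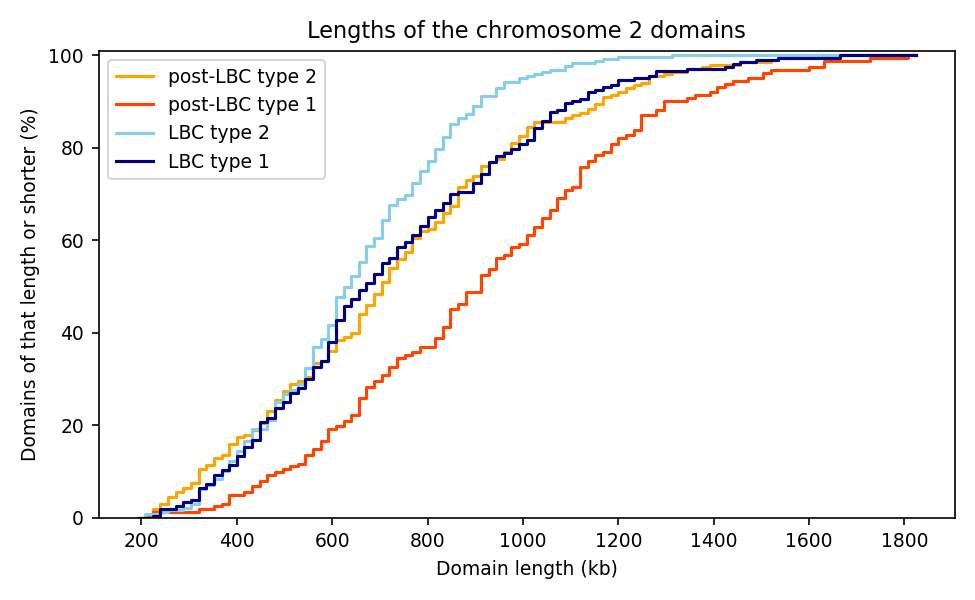
Cumulative share of chromosome 2 domains (%) by domain length (kb) in the 4 pooled maps, each line being 1 map. The post-LBC type 1 line lies to the right of the others with a median of 912 kb, and the LBC type 2 line is the steepest, with 4.82% of its domains above 1 Mb.

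The ratio of median lengths between stages was 1.36 in type 1 (post-LBC over LBC), and it ranged from 1.15 to 1.56 when the opposite ends of the 2 intervals were divided. It was 1.11 in type 2 (0.976 to 1.24), a range that includes 1. Between types, the ratio of type 2 over type 1 was 0.772 at the post-LBC stage (0.672 to 0.887) and 0.940 at the LBC stage (0.826 to 1.08). The stage ratio of type 1 depended on the list. Set against the manually refined LBC type 1 domains, whose median on chromosome 2 was 1440 kb, the automatic post-LBC type 1 domains had a ratio of 0.633. No refined list of another map was analysed here, so like was compared with like only between automatic lists.

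Over all other chromosomes the same ratios of medians were 1.47 for post-LBC type 1 over LBC type 1, 1.16 for post-LBC type 2 over LBC type 2, 1.03 for LBC type 2 over LBC type 1 and 0.811 for post-LBC type 2 over post-LBC type 1. In means, which rank the chromosomes more finely, the stage ratio of chromosome 2 in type 1 was 1.26, the sixth lowest of 28 chromosomes, and the other 27 ranged from 1.11 to 1.68 with a median of 1.42. The ratio of LBC type 2 over LBC type 1 was 0.894 on chromosome 2, the third lowest, whereas it was above 1 on 24 of the 28 chromosomes. The others below 1 were chromosomes 1, Z and 4, with 0.842, 0.876 and 0.946, while chromosomes 3 and 5 had 1.03 each. Over chromosomes 1, 3, 4 and 5 together the ratio of means was 0.933. Their ratio of medians was 0.949, against 0.940 on chromosome 2. The difference between chromosome 2 and the rest was not tested.

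The longest domain of each map lay in the part of the chromosome with the higher coordinates. In post-LBC type 2 the longest had 1568 kb (chr2:116496001-118064000), in post-LBC type 1 it had 1808 kb (chr2:146240001-148048000), in LBC type 2 it had 1312 kb (chr2:146448001-147760000) and in LBC type 1 it had 1664 kb (chr2:117872001-119536000). The longest domain of LBC type 2 lay inside the longest of post-LBC type 1. The shortest domains were close to the minimum of the lists. Post-LBC type 2 had 4 domains of 224 kb (chr2:18432001-18656000, chr2:30320001-30544000, chr2:50800001-51024000 and chr2:139872001-140096000). Post-LBC type 1 had 1 of 208 kb (chr2:141936001-142144000). LBC type 2 had 2 of 208 kb (chr2:68576001-68784000 and chr2:79216001-79424000), and LBC type 1 had 1 of 224 kb (chr2:44576001-44800000).

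Domain length was then followed along the chromosome in 10 Mb windows, each domain being placed by its middle. The last of the 16 windows held 1 domain per map and was read only as a count. In the other 15, the window mean ranged from 560 kb (70 to 80 Mb, 17 domains) to 934 kb (20 to 30 Mb, 11 domains) in post-LBC type 2 and from 761 kb (40 to 50 Mb, 13 domains) to 1077 kb (70 to 80 Mb, 9 domains) in post-LBC type 1. It ranged from 518 kb (60 to 70 Mb, 20 domains) to 828 kb (130 to 140 Mb, 12 domains) in LBC type 2 and from 636 kb (30 to 40 Mb, 15 domains) to 974 kb (130 to 140 Mb, 10 domains) in LBC type 1. The 2 LBC maps therefore had their highest window mean in the same window. The window with the highest mean in post-LBC type 1 was the one with the lowest mean in post-LBC type 2. The SD between domains within a window was 305 kb in post-LBC type 2, against 105 kb between window means. These SDs were 332 against 71.8 kb in post-LBC type 1, 203 against 81.2 kb in LBC type 2 and 290 against 97.5 kb in LBC type 1. A mean over several domains varies less than single domains by averaging alone. The SD within windows would thus be the larger even if windows did not differ. Whether window means differ by more than averaging leaves was not tested.

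Domains were longer on average in post-LBC type 1 than in LBC type 1 in 14 of 16 windows. The exceptions were the window from 130 to 140 Mb, with a ratio of 0.989, and the last window, with 1 domain of 320 kb in post-LBC type 1 and 1 of 336 kb in LBC type 1. The ratio was largest from 70 to 80 Mb, at 1.59, where 9 post-LBC type 1 domains stood against 15 LBC type 1 domains. Against the manually refined LBC type 1 list, post-LBC type 1 had the longer mean in 0 of 15 windows. In type 2 the domains were longer at the post-LBC stage in 10 of 16 windows, and the ratio ran from 0.837 (70 to 80 Mb) to 1.52 (60 to 70 Mb), these being neighbouring windows. LBC type 2 domains were longer than LBC type 1 domains in 2 of 16 windows, and post-LBC type 2 domains were longer than post-LBC type 1 domains in 0 of 16.

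Window means were then set side by side between maps. Across the 15 windows, the means of LBC type 2 and LBC type 1 had a Pearson r of 0.776 and a Spearman rho of 0.729. For post-LBC type 1 with LBC type 1, r was 0.232 and rho 0.161, and for post-LBC type 2 with LBC type 2, r was -0.0841 and rho -0.0321. For post-LBC type 2 with post-LBC type 1, r was -0.144 and rho -0.0071. With the manually refined LBC type 1 list in place of the automatic one, post-LBC type 1 had an r of 0.475 and a rho of 0.593, and post-LBC type 2 had an r of -0.314 and a rho of -0.218. Some manual window means rest on few domains. The windows from 120 to 130 Mb and from 130 to 140 Mb held 3 each (SD 3824 and 2855 kb), and that from 50 to 60 Mb held 4. The differences between these correlations were not tested. These are descriptions over windows that share the assembly, its gaps and, within a map, the same library depth.

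**Figure D2:**
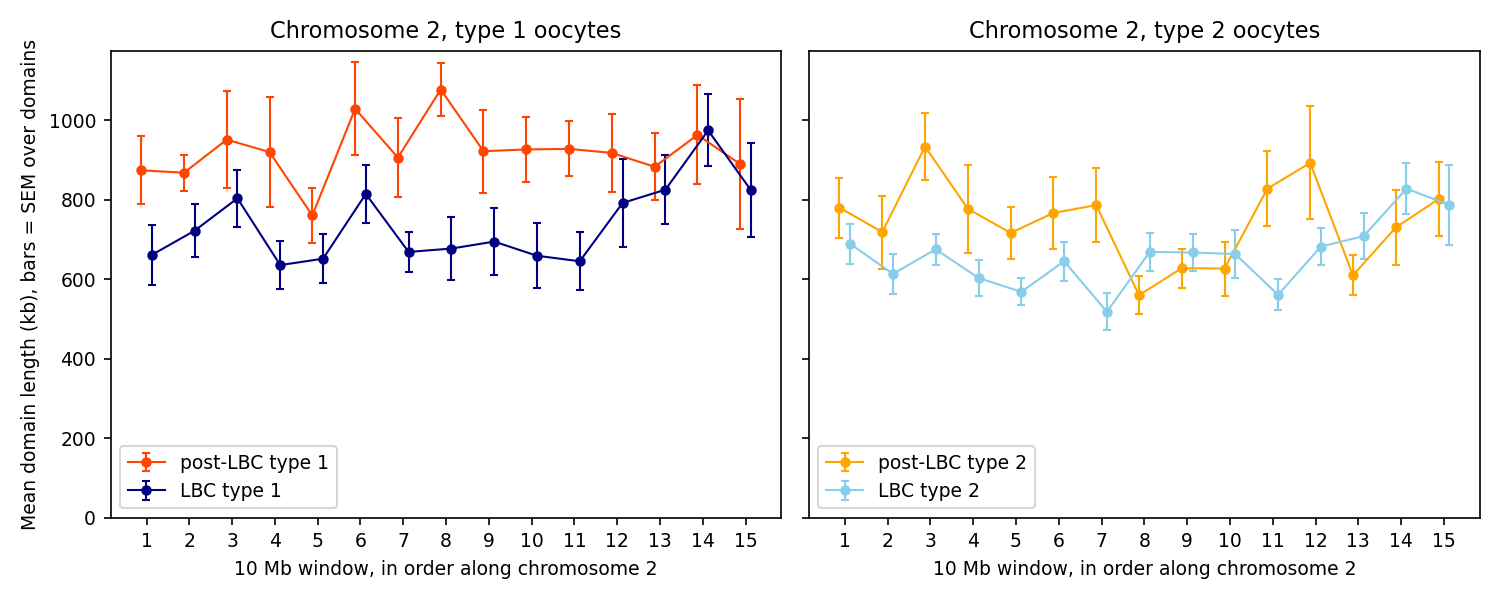
Mean length of chromosome 2 domains (kb) in 10 Mb windows numbered in order along the chromosome, with post-LBC and LBC maps of type 1 at left and of type 2 at right. Bars are the SEM over the domains of a window, which all come from the same pooled map and are no replicates. In type 1 the post-LBC mean is the higher in 14 of the 15 windows drawn, and in type 2 it is the higher in 10.

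Boundaries were compared next. Chromosome 2 had 228 boundaries in post-LBC type 2, 176 in post-LBC type 1, 247 in LBC type 2 and 224 in LBC type 1. Of the post-LBC type 1 boundaries, 113 of 176 had an LBC type 1 boundary within 80 kb, 64.2% (95% Wilson interval 56.9% to 70.9%). Over all chromosomes the share was 75.3%, and chromosome 1, had 65.4% (59.2% to 71.1%). Chromosome Z had 55.8%, and no other chromosome was lower than chromosome 2. Of the LBC type 1 boundaries, 113 of 224 had a post-LBC type 1 boundary within 80 kb, 50.4% (43.9% to 56.9%), against 54.9% over all chromosomes. Positions of the 16 kb grid, taken along chromosome 2, lay within 80 kb of an LBC type 1 boundary in 25.0% of cases and of a post-LBC type 1 boundary in 19.7%, so the shares were 2.56 times these values in both directions. The grid shares were themselves lower on chromosome 2 than over the other chromosomes, at 28.9% and 20.9%, and in multiples of the grid share the other chromosomes had 2.67 and 2.66.

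**Figure D3:**
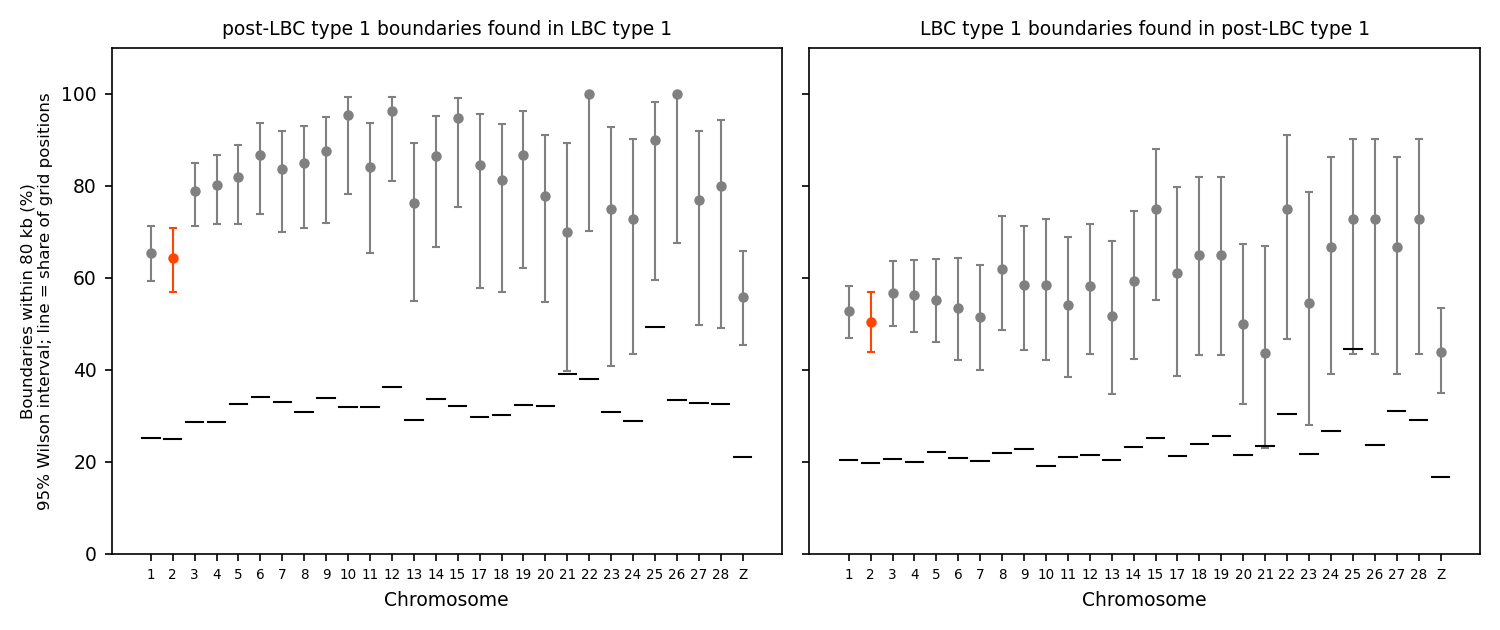
Share of boundaries (%) with a boundary of the other map within 80 kb on each chromosome, with 95% Wilson intervals, for post-LBC type 1 boundaries found in LBC type 1 at left and the reverse at right. Chromosome 2 is drawn in colour, and the short lines are the share of 16 kb grid positions within 80 kb of a boundary. Chromosome 2 has 64.2% at left, with chromosome Z alone below it, and 50.4% at right.

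Between the type 2 maps fewer boundaries coincided. Of the post-LBC type 2 boundaries, 94 of 228 had an LBC type 2 boundary within 80 kb, 41.2% (35.0% to 47.7%), against 44.5% over all chromosomes, and 27.7% of grid positions did. Of the LBC type 2 boundaries, 93 of 247 had a post-LBC type 2 boundary, 37.7% (31.8% to 43.8%), against 39.7% over all chromosomes and 25.3% of grid positions. Both shares were 1.49 times the grid share. Away from gaps and the outermost boundaries they were lower, at 37.8% (30.9% to 45.2%) and 31.6% (25.7% to 38.2%). On all other chromosomes these shares were 38.7% and 33.8%. In multiples of the grid share, chromosome 2 had 1.36 and 1.25, and all other chromosomes had 1.35 and 1.32. The grid share still covers positions at and in gaps, so it is not a like background for boundaries away from them. At a tolerance of 20 kb, 18.2% of the LBC type 2 boundaries had a post-LBC type 2 boundary. The grid share also depends on the tolerance, and none at 20 kb is given here, so this value cannot be set against it. Post-LBC type 2 boundaries coincided more often with those of the type 1 maps. Of these 228 boundaries, 105 had a post-LBC type 1 boundary, 46.1% (39.7% to 52.5%), against 49.1% over all chromosomes, which was 2.34 times the grid share. An LBC type 1 boundary lay near 113 of them, 49.6% (43.1% to 56.0%), against 53.3% over all chromosomes, which was 1.98 times the grid share. In the other direction, 104 of 176 post-LBC type 1 boundaries had a post-LBC type 2 boundary, 59.1% (51.7% to 66.1%), against 59.9% over all chromosomes, and 109 of 224 LBC type 1 boundaries had one, 48.7% (42.2% to 55.2%), against 47.6%. The type 2 map of the later stage was thus closer to both type 1 maps than to LBC type 2 in multiples of the grid share.

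At the LBC stage, 109 of 247 type 2 boundaries had a type 1 boundary within 80 kb, 44.1% (38.1% to 50.4%), against 52.7% over all chromosomes, 1.76 times the grid share. Over the other macrochromosomes (1, 3, 4 and 5) the share was 47.3%. Singly, these had 44.1%, 43.3%, 51.6% and 57.7% in that order, so chromosome 2 was not set apart from them. In the other direction, 111 of 224 LBC type 1 boundaries had an LBC type 2 boundary, 49.6% (43.1% to 56.1%), against 53.0% over all chromosomes. The pair of post-LBC type 1 and LBC type 2 shared 87 of 176 post-LBC boundaries, 49.4% (42.1% to 56.8%), against 53.7% over all chromosomes, and 87 of 247 LBC boundaries, 35.2% (29.5% to 41.4%), against 38.8%. In F1 scores, which count each boundary in at most 1 match, the pair post-LBC type 1 and LBC type 1 had 0.565 and was the closest of the 6 pairs of maps. The pair post-LBC type 2 and LBC type 2 had 0.387 and was the least close. The pair of post-LBC maps had 0.510 and the pair of LBC maps 0.463.

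Coinciding boundaries of the type 1 maps were mostly close. Of 176 post-LBC type 1 boundaries, 50 were in the same 16 kb bin as an LBC type 1 boundary, 28.4%, and a further 27 were 1 bin away. The median distance to the nearest LBC type 1 boundary was 32 kb on chromosome 2 and 16 kb on all other chromosomes, where 42.9% were in the same bin. The median distance of LBC type 2 boundaries to the nearest LBC type 1 boundary was 112 kb on chromosome 2 and 80 kb elsewhere. For post-LBC type 2 boundaries to the nearest LBC type 2 boundary it was 128 kb on chromosome 2 and 112 kb elsewhere. Chromosome 2 had the larger distance in each of these comparisons, and none was tested. Such distances also depend on how densely boundaries lie, and boundaries were sparser on chromosome 2. The share of grid positions within 80 kb of an LBC type 1 boundary was 25.0% there and 28.9% elsewhere. For LBC type 2 boundaries it was 27.7% and 28.6%.

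**Figure D4:**
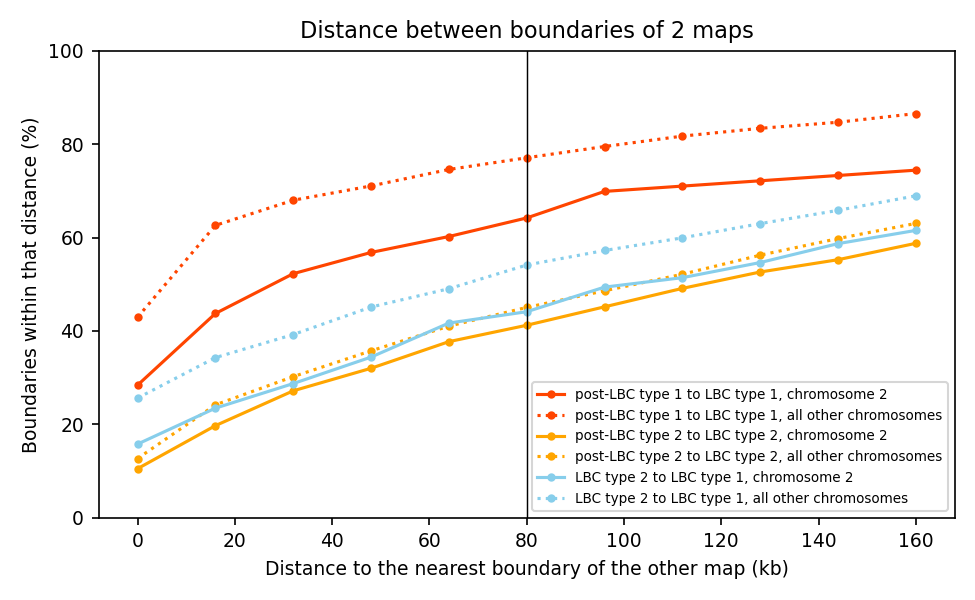
Cumulative share of boundaries (%) by distance to the nearest boundary of the other map (kb), for 3 pairs of maps on chromosome 2 (solid lines) and all other chromosomes (dotted lines). The vertical line marks 80 kb, where the solid lines reach 64.2% for post-LBC type 1 to LBC type 1, 41.2% for post-LBC type 2 to LBC type 2 and 44.1% for LBC type 2 to LBC type 1.

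The LBC type 1 boundaries with and without a post-LBC type 1 boundary alternated in 60 kept and 59 lost runs along the chromosome. Between 23.5% and 73.3% of the LBC type 1 boundaries of a 10 Mb window had a post-LBC type 1 boundary within 80 kb, the highest share being 11 of 15 from 60 to 70 Mb and the lowest 4 of 17 from 100 to 110 Mb. With 11 to 17 boundaries in each of these 15 windows, whether the shares differ was not tested. The longest run of consecutive LBC type 1 boundaries without one had 9 boundaries, from position 99088000 to position 103776000, a span of 4688 kb in which post-LBC type 1 had 6 boundaries at other places. In type 2, one of the 2 longest such runs overlapped it, with 10 LBC type 2 boundaries between positions 99872000 and 105024000 that had no post-LBC type 2 boundary within 80 kb. The other had 10 boundaries between positions 18256000 and 24592000. In type 1, by contrast, the longest run of kept boundaries lay in that second stretch, with 6 boundaries between positions 18448000 and 22128000. The share of kept boundaries had a Spearman rho of 0.0429 with the mean LBC type 1 domain length of the window, over 15 windows. In LBC type 1, domains next to lost boundaries had a median length of 648 kb (quartiles 464 and 928 kb) and those next to kept boundaries 696 kb (544 and 928 kb), and in LBC type 2 these medians were 656 and 608 kb.

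Of the 224 LBC type 1 boundaries, 38 had a boundary within 80 kb in each of the other 3 maps, 17.0% (12.6% to 22.4%), against 23.4% over all chromosomes and 5.08% of grid positions. Counted from the other maps, the boundaries found in all 4 were 42 of 228 in post-LBC type 2 (18.4%, against 26.0% over all chromosomes), 44 of 176 in post-LBC type 1 (25.0%, against 32.1%) and 39 of 247 in LBC type 2 (15.8%, against 22.4%). Each of these shares was lower than over all chromosomes, and each grid share was lower than on the other chromosomes. The share in all 4 maps depended on the tolerance, with 9.38% of LBC type 1 boundaries at 20 kb and 30.8% at 160 kb. The grid share also depends on the tolerance and is given at 80 kb only. Of the 38 in LBC type 1, 16 were edges of a gap or the outermost boundaries of the chromosome, and 22 were between neighbouring domains. The 22 included 5 within the first 10 Mb, at positions 992000, 2032000, 2640000, 4704000 and 7664000. Another 4 of the 22 lay from 60 to 70 Mb, at 61824000, 65168000, 66080000 and 68192000. Those at 61824000 and 65168000 were in the same bin in all 4 maps. Beyond 100 Mb, of the 22, only those at 106672000 and 129952000 were found. LBC type 1 had 17 boundaries in the first 10 Mb, 15 from 60 to 70 Mb and 11 to 17 in each window from 100 to 150 Mb. Whether the 22 are spread unevenly was not tested.

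Both post-LBC maps had a boundary near 77 of 224 LBC type 1 boundaries, 34.4% (28.5% to 40.8%), against 35.6% over all chromosomes and 10.3% of grid positions. They had one near 51 of 247 LBC type 2 boundaries, 20.6% (16.1% to 26.1%), against 25.5% over all chromosomes. LBC type 1 boundaries were thus found in both later maps 3.33 times as often as grid positions were, and LBC type 2 boundaries 2.00 times.

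Boundaries that had none within 80 kb in any other map were 64 of 228 in post-LBC type 2 (28.1%, against 28.5% over all chromosomes) and 24 of 176 in post-LBC type 1 (13.6%, against 9.73%). They were 86 of 247 in LBC type 2 (34.8%, against 32.3%) and 44 of 224 in LBC type 1 (19.6%, against 18.7%). The share was lowest in post-LBC type 1, which also had the fewest boundaries.

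Whole domains were counted as found again only where both ends were, so these shares are lower than those of single boundaries by construction. Both ends of 43 of 203 LBC type 1 domains lay within 80 kb of post-LBC type 1 boundaries, 21.2% (16.1% to 27.3%), against 24.7% over all chromosomes. In type 2 this held for 27 of 228 LBC domains, 11.8% (8.27% to 16.7%), against 10.1%. Within the LBC stage, 37 of 203 type 1 domains had both ends in type 2, 18.2% (13.5% to 24.1%), against 22.8%, and within the post-LBC stage 38 of 162 type 1 domains had both ends in type 2, 23.5% (17.6% to 30.5%), against 23.6%. Both ends were found in all 4 maps for 6 of 203 LBC type 1 domains, 2.96% (1.36% to 6.30%), against 2.59%. Neighbours at the start of the chromosome accounted for 2 of the 6. In LBC type 1 these were the domains chr2:992001-2032000 (1040 kb) and chr2:2032001-2640000 (608 kb). The counterpart of the longer one had 976 kb in post-LBC type 2, 1072 kb in post-LBC type 1 and 992 kb in LBC type 2, and that of the shorter one had 656, 608 and 672 kb in these maps. In post-LBC type 2 both counterparts bordered a gap. In LBC type 1, 3 others of the 6 bordered a gap, and their coordinates there were chr2:30496001-30944000 (448 kb), chr2:119728001-120288000 (560 kb) and chr2:151248001-151584000 (336 kb). The second of these, which lies between 2 gaps, measured 496 kb in post-LBC type 2 and had the same coordinates in the other 3 maps. The last, chr2:85200001-85680000, had 480 kb in LBC type 1 and between 416 and 496 kb in the other 3 maps.

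Some long post-LBC domains spanned several LBC domains. In type 1, 43 of 162 post-LBC domains held the middles of 2 or more LBC domains, 26.5% (20.3% to 33.8%), against 35.0% over all chromosomes. In type 2 there were 48 of 200, 24.0% (18.6% to 30.4%), against 26.1%. The domains of post-LBC type 1 that held 2 or more had a median length of 1120 kb, and the 113 that held 1 had 832 kb. These counts and this contrast in length are partly fixed by construction. In each type there were fewer post-LBC than LBC domains over a similar length, and longer domains catch more middles. Whether the counts exceed what this alone gives was not tested. Of the 162, 4 held 3 or more, 2.47%, against 46 of 1132 over all chromosomes, 4.06%. The count was 27 when at least 80% of each LBC domain had to lie inside, and 2 post-LBC type 1 domains held 2 or more of the manually refined domains. The post-LBC type 1 domain chr2:38160001-39792000 (1632 kb) held LBC type 1 domains of 560, 416 and 656 kb, and both its ends were 16 kb from theirs. The domain chr2:44560001-45728000 (1168 kb) held 3 of 224, 384 and 528 kb, again with both ends 16 kb from theirs. In the domains chr2:90912001-92416000 (1504 kb) and chr2:5296001-6544000 (1248 kb), by contrast, 1 or both ends were 96 kb or more from the ends of the 3 domains held. The longest that held 2 was chr2:27104001-28832000 (1728 kb), over LBC type 1 domains of 592 and 1088 kb.

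Gaps, that is stretches between neighbouring domains that no domain covers, numbered 27 in post-LBC type 2, 13 in post-LBC type 1, 18 in LBC type 2 and 20 in LBC type 1. They summed to 6.16, 3.78, 4.27 and 4.80 Mb in these maps, or 4.07%, 2.49%, 2.82% and 3.17% of the span of the domains, against 4.21%, 2.87%, 2.98% and 3.33% over all chromosomes. Post-LBC type 2 also began 192 kb into the chromosome. Gaps of at most 200 kb, which could hold a domain too short for the lists, were 22 of 27, 10 of 13, 15 of 18 and 16 of 20. What these stretches contain was not tested.

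Most of the gap length lay at fixed places when the long gaps near the chromosome end, given below, were included. LBC type 1 had 9 gaps that overlapped a gap in each of the other 3 maps. From the start of the chromosome, the first 7 had lengths in LBC type 1 of 80 kb (chr2:30944001-31024000), 64 kb (chr2:49040001-49104000), 96 kb (chr2:52144001-52240000), 32 kb (chr2:80336001-80368000), 192 kb (chr2:119536001-119728000), 304 kb (chr2:120288001-120592000) and 400 kb (chr2:141952001-142352000). The gaps of 80, 32 and 304 kb had identical coordinates in post-LBC type 1, LBC type 2 and LBC type 1. In post-LBC type 2 these 3 had 112, 64 and 320 kb, each longer than in the other maps. At the last of the 7, the gap measured 288 kb in post-LBC type 2, 144 kb in post-LBC type 1, 144 kb in LBC type 2 and 400 kb in LBC type 1. All 7 overlapped a gap of the manually refined list, which ends at position 148416000.

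**Figure D5:**
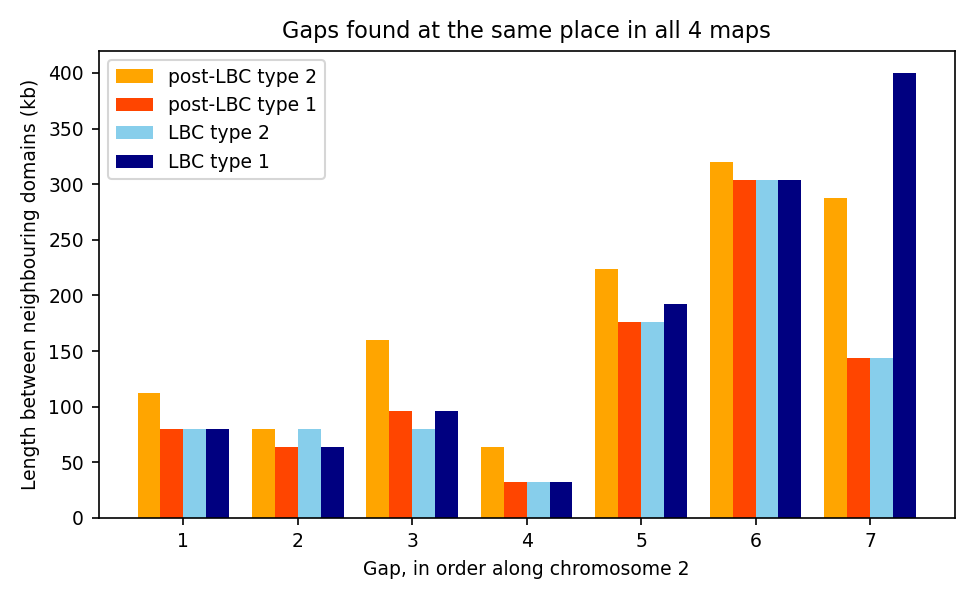
Length (kb) of the first 7 gaps of chromosome 2 that overlap in all 4 maps, in order along the chromosome, with 1 bar per map. Gap 4 has 32 kb and gap 6 has 304 kb in post-LBC type 1, LBC type 2 and LBC type 1, and gap 7 differs most, with 144 kb in post-LBC type 1 against 400 kb in LBC type 1.

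The longest gaps were near the end of the chromosome with the higher coordinates. In post-LBC type 2 a single gap of 2880 kb was listed (chr2:148400001-151280000). In the other maps a short domain divided this stretch. The gap before it had 1392 kb in post-LBC type 1, 1424 kb in LBC type 2 and 1392 kb in LBC type 1 (chr2:148400001-149792000). The gap after it had 1248 kb in post-LBC type 1, 1152 kb in LBC type 2 and 1136 kb in LBC type 1 (chr2:150112001-151248000). Without these gaps, 3.28 Mb remained in post-LBC type 2, 1.14 Mb in post-LBC type 1, 1.70 Mb in LBC type 2 and 2.27 Mb in LBC type 1. Gaps that overlapped none in another map numbered 15 of 27 in post-LBC type 2, 1 of 13 in post-LBC type 1, 3 of 18 in LBC type 2 and 7 of 20 in LBC type 1. These counts, and that of gaps found in all 4 maps, cover chromosome 2 only. Whether they are usual over all chromosomes was not tested.

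The manually refined LBC type 1 list gave a second view of the same pooled map. It held 87 chromosome 2 domains with a median of 1440 kb (1136 to 1624 kb), against 203 automatic ones with a median of 672 kb. The longest had 7672 kb (chr2:120600001-128272000) and the shortest 340 kb (chr2:146570001-146910000). Of the 87 domains, 64 held the middles of 2 or more automatic domains, and the domain chr2:68175001-75296000 held 9. This count is partly fixed by construction, since the 87 domains covered a length similar to that of the 203 automatic ones. In the manual list, 11 domains overlapped a neighbour, and its 26 gaps had a median of 18 kb. A border at a narrow gap or an overlap thus entered as 2 positions. Of the 125 manual boundaries counted in this way, 102 lay within 80 kb of an automatic one, 81.6%, and 25.0% of grid positions did. Of 224 automatic boundaries, 80 had a manual one, 35.7%. These counts and shares cover chromosome 2 only, and whether they are usual over all chromosomes was not tested.

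Automatic LBC type 1 boundaries near a manual one were set against those without one. With a manual boundary within 80 kb, 62 of 80 had a post-LBC type 1 boundary, 77.5% (67.2% to 85.3%), against 51 of 144 without one, 35.4% (28.1% to 43.5%). For post-LBC type 2 the counts were 55 of 80, 68.8% (57.9% to 77.8%), against 54 of 144, 37.5% (30.01% to 45.6%). For LBC type 2 they were 44 of 80, 55.0% (44.1% to 65.4%), against 67 of 144, 46.5% (38.6% to 54.7%), with overlapping intervals. Away from gaps and the outermost boundaries the shares with and without a manual boundary were 77.0% and 34.7% in post-LBC type 1, 63.9% and 37.2% in post-LBC type 2, and 42.6% and 44.6% in LBC type 2. Of grid positions, 19.7% lay within 80 kb of a post-LBC type 1 boundary, 25.3% of a post-LBC type 2 boundary and 27.7% of an LBC type 2 boundary. The split by manual boundaries was made on chromosome 2 only, so no share over all chromosomes is given. Whether the contrast between boundaries with and without a manual one differs between the maps was not tested. What guided the refinement is not given in detail in the sources used here, and whether these boundaries differ in strength was not tested.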

How the data were processed

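The authors removed adapters (cutadapt 4.1), mapped the reads to ASM2420605v2 (juicer 1.5.6), dropped pairs below a mapping quality of 30, stored contacts with cooler 0.10.2 without balancing, merged the nuclei of each group and called domains with lavaburst 0.2.0. The deposited lists hold domain coordinates in bp and no counts, so depth, contact strength and values of single nuclei were not analysed here. The methods give a resolution of 20 kb, whereas the automatic lists lie on a 16 kb grid, and gamma was chosen for single oocytes to bring the mean length of domains over 200 kb near 1 Mb.

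Lengths, windows of 10 Mb, boundaries within 80 kb and gaps were computed with Python 3.11.15, numpy 2.4.6 and scipy 1.17.1, and plots were drawn with matplotlib 3.10.9. Intervals are 95% Wilson intervals for shares and binomial order-statistic intervals for medians. Grid shares are the percent of 16 kb positions within 80 kb of a boundary. No test was made, since each group is 1 map. The counting steps were tested on simulated data. Starts are printed counted from 1. Members, windows and lists were chosen with earlier results of these data known. The domains and places named are extremes of each map, domains and gaps found in all 4 maps, the domains that hold most others, and the longest runs of kept and lost boundaries. Individual boundaries found in all 4 maps, windows with the highest and lowest kept share and the runs of type 2 were named after their values were seen. Alternatives were other tolerances, window sizes and length limits, means for medians, boundaries away from gaps, leaving out windows, and the manual list. Sequence, genes and base composition were not analysed here.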

Additional observations from a re-analysis of the deposited data

Results flagged for a closer look

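Stage ratios of mean domain length (post-LBC over LBC) lay on opposite sides of 1 in the 2 types in 4 of the 15 windows of chromosome 2 that held over 1 domain per map. From 70 to 80 Mb the ratio was 0.837 in type 2 (560 kb in post-LBC, 669 kb in LBC) and 1.59 in type 1 (1077 kb in post-LBC, 677 kb in LBC). From 80 to 90 Mb it was 0.941 in type 2 and 1.33 in type 1, from 90 to 100 Mb 0.945 in type 2 and 1.41 in type 1, and from 120 to 130 Mb 0.861 in type 2 and 1.07 in type 1. These differences were not tested, since each ratio rests on 1 map per stage, post-LBC type 2 being 1 nucleus. The first 3 of these windows are neighbours.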

How the results depend on the processing

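No paired analysis was possible because each group is 1 pooled map. Restriction to domains longer than 300 kb, means for medians and leaving out domains at gaps or ends moved no count or ratio of lengths beyond its limits (1.5 times, or the interval of the ratio). Leaving out each 10 Mb window in turn gave ratios of medians of 1.29 to 1.39 for post-LBC type 1 over LBC type 1, 1.07 to 1.15 for post-LBC type 2 over LBC type 2, 0.907 to 0.952 for LBC type 2 over LBC type 1 and 0.763 to 0.818 for post-LBC type 2 over post-LBC type 1. The manually refined list turned the first ratio to 0.633, left post-LBC type 1 longer in 0 of 15 windows and left 2 post-LBC type 1 domains that held 2 or more. Its boundaries include both edges of narrow gaps and overlaps. Of these boundaries, 72.0% had a post-LBC type 1 boundary and 29.6% had one in each of the other 3 maps. Of post-LBC type 1 boundaries, 40.3% had a manual one. The cause was not tested.

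Post-LBC type 1 was longer in 28 of 31 windows of 5 Mb and in 8 of 8 of 20 Mb. Tolerances of 20, 40 and 160 kb gave 34.4%, 41.1% and 58.5% for LBC type 1 boundaries found in post-LBC type 1, and 43.8%, 52.3% and 74.4% for the reverse. They gave 18.2%, 24.7% and 52.2% for LBC type 2 boundaries found in post-LBC type 2, 23.5%, 28.7% and 61.5% for LBC type 2 boundaries found in LBC type 1, and 9.38%, 12.1% and 30.8% for LBC type 1 boundaries found in all 4 maps. No grid shares at these tolerances are given here, so these values do not show how far each exceeds its background. Away from gaps and ends, 31.6% of LBC type 2 boundaries were found in post-LBC type 2, against 33.8% on all other chromosomes. These were 1.25 and 1.32 times the grid share at 80 kb. Of LBC type 1 boundaries, 12.1% were found in all 4 maps, against 16.9% on all other chromosomes. These were 2.38 and 2.59 times the grid share at 80 kb, which still covers positions at gaps. If at least 80% of each LBC domain had to lie inside, 27 post-LBC type 1 domains held 2 or more, and with gaps of at least 80 kb post-LBC type 1 had 8 gaps. Of 115 alternative values, 88 stayed within their limits. These 88 include every value with a window left out, which drops few domains, so the tally is no measure of robustness. Counts of windows of 5 and 20 Mb were compared raw with that of 10 Mb windows and fell outside the limits for that reason. Depth was not known from the lists.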
